A study of Myotis pilosus with 4 samples.

Results

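MicroRNAs (miRNAs) of the bat Myotis ricketti (Myotis pilosus in the sample labels) were compared between hibernating and active animals in brain and in intra-abdominal white adipose tissue (WAT), and the comparison here asks how far the change between states was the same in both tissues. For each miRNA, the log2 ratio of hibernating to active was taken in brain and in WAT, and the WAT value was subtracted from the brain value. A positive difference therefore means that the ratio of hibernating to active was higher in brain than in WAT, and a difference of 1 is a 2-fold gap between the ratios. Members were the miRNAs of the study's list that reached 10 reads summed over the brain libraries and 10 summed over the WAT libraries. They numbered 130 of the 196 listed miRNAs, namely 79 of 119 conserved and 51 of 77 bat-specific ones, and held 99.9% of the reads of the list.

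The 4 libraries were each made from 1 pool, in which 3 bats took part with 10 μg of RNA apiece. HB (whole brain) and HA (WAT) came from bats in hibernation, whose body was at about 9°C while the air was at 7°C. AB (brain) and AA (WAT) came from active bats, called aroused in the sample labels, with about 36°C in air of 21°C. All were adult wild animals with no other treatment stated, each state's brain and WAT pools came from the same bats, and active bats were caught in October and hibernating bats in the following March. State, season and the set of bats therefore cannot be told apart. As no condition had a replicate library, no test was possible, and each interval given is a 95% exact interval that covers counting error only.

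A miRNA is a single-stranded RNA cut from a hairpin precursor, either arm of which can give a mature form. It guides a silencing complex to messenger RNAs, mainly through pairing of its bases 2 to 8, the seed, so that miRNAs with 1 seed form a family with related targets. Brain and fat each carry miRNAs that mark their main cell types, such as miR-124 in neurons and miR-378 in fat cells. In hibernation, body temperature and metabolic rate are lowered throughout the body, while fat is burned as the main fuel.

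The following mature sequences, read from the study's list and written 5′ to 3′ as DNA with the seed in capitals, are of the conserved members with a higher ratio in brain than in WAT on which the account below turns.
miR-193-3p: aACTGGCCcacaaagtcccgct
miR-3135-5p: gGCTGGTCcgagtgcagt
miR-448-3p: tTGCATATgtaggatgtccca
miR-455-3p: gCAGTCCAtgggcatatacac
miR-544-5p: tCTTGTTAaaaggcagattct
miR-381-5p: aGCGAGGTtgccctttgtat
miR-129-3p: aAGCCCTTaccccaaaaagcat

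The conserved members with the lowest differences are shown next together with miR-363-3p, which has the seed of miR-92b-3p.
miR-200b-3p: tAATACTGccgggtaatgatgg
miR-200a-3p: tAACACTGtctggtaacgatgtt
miR-10-5p: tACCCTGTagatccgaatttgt
miR-222-3p: aGCTACATctggctactgggtc
miR-92b-3p: tATTGCACtcgtcccggcct
miR-363-3p: aATTGCACggtatccatct

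Bat-specific members, which the study listed as miRNAs, are named below by their sequences, and whether any of them derives from a tRNA or an rRNA was not checked here. These 8 stood among the 10 highest or 10 lowest differences with 10 or more reads in each library, first 4 with the ratio higher in brain and then 4 with it lower.
18 nt: aGGAGTGTgtaacaactc
19 nt: tGACTATCtagaggaagta
18 nt: tGACTATCtagaggaagt
19 nt: cCTCGACAcaagggtttgt
21 nt: tACGGCCAagcacccgcaggg
22 nt: gCGTTGGTggtatagtggtgag
19 nt: cCCGGCGGggaaggtggct
22 nt: aGGGGATGtccaactgtcagtt

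Libraries held 10007650 to 12159756 clean reads. Listed miRNAs took the lowest share of the reads in HA, at 13.2%, and the highest in AB, at 24.0%, with 20.9% in HB and AA. The defining markers fitted the labelled tissues, since miR-124a-3p had 415697 and 449967 reads in HB and AB against 286 and 292 in HA and AA. Muscle markers were present in the WAT libraries as well, with 196202 reads of miR-1-3p in HA against 202291 in AA. Ratios of each tissue were scaled by TMM over the listed miRNAs, and in bulk tissue fewer cells of a type and less RNA per cell cannot be told apart.

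The tissues shared the direction of change for most miRNAs but by no means for all. Both ratios lay on the same side of 0 for 82 of the 130 members (63.1%) and on opposite sides for 48. Across these 130 miRNAs, which share libraries and depth, Pearson's r of the brain and WAT log2 ratios was 0.44 and Spearman's rho was 0.39. The difference between tissues had a median of 0.28, quartiles of -0.41 and 1.31, an SD of 1.53 and a range from -5.64 to 3.65. Its spread was as wide as that of either tissue's ratios, whose SDs were 1.37 in brain and 1.51 in WAT.

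A difference of 1 or more in size was found in 61 members (46.9%), against 56.1% of all 27158 distinct tags that met the same minimum counts, so the share among the members lay below that of the libraries at large. Members and tags were not matched for read depth here. With 1000 or more reads in all, the shares were 39.0% of members and 47.5% of tags. In 40 of the 130 members (30.8%) the ratio was higher in brain by 1 or more, and in 21 (16.2%) it was lower. This split moved with the scaling, from 52 higher and 17 lower with TMM over the 4 libraries together to 29 higher and 34 lower with TMM computed within conserved and within bat-specific miRNAs. It was 42 and 21 with scaling by clean reads, 34 and 25 with DESeq2's median of ratios, and 30 and 28 with scaling by the reads of listed miRNAs. Against the scaling used here, the others shifted each difference by -0.65 to 0.34 in conserved and by -0.41 to 0.34 in bat-specific members, so the sign can turn for values between -0.34 and 0.65 in conserved and between -0.34 and 0.41 in bat-specific members. The order of the miRNAs by their difference does not depend on a scaling that is common to all of them. The size was 2 or more in 23 members, 14 higher and 9 lower, and under 0.5 in 41.

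The values also depend on which length variants are counted, because each miRNA was counted by the tag equal to its listed sequence. With all tags that begin with the first 18 nt of the sequence, 36 of the 61 members kept their direction and a size of 1 or more, and 8 changed sign. With all tags that contain its bases 2 to 17 the numbers were 36 and 10, and 32 of the 61 kept direction and size under both rules. Values under these 2 rules are given below, in this order, for some of the named miRNAs whose difference moved with them. A named miRNA without such values is not thereby stable.

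Fewer differences were clear of counting error. The whole interval lay beyond a difference of 1 for 30 members (23.1%), 17 higher and 13 lower in brain, and it excluded 0 for 77. For 75 members the interval of the ratio excluded 0 in each tissue. Of these, 51 had the same direction, 25 with the hibernating library higher in both tissues and 26 with it lower, and 24 (32%) had opposite directions, 12 each way. Under the 6 scalings the number with the same direction was 44 to 57 and with opposite directions 21 to 32.

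**Figure D1:**
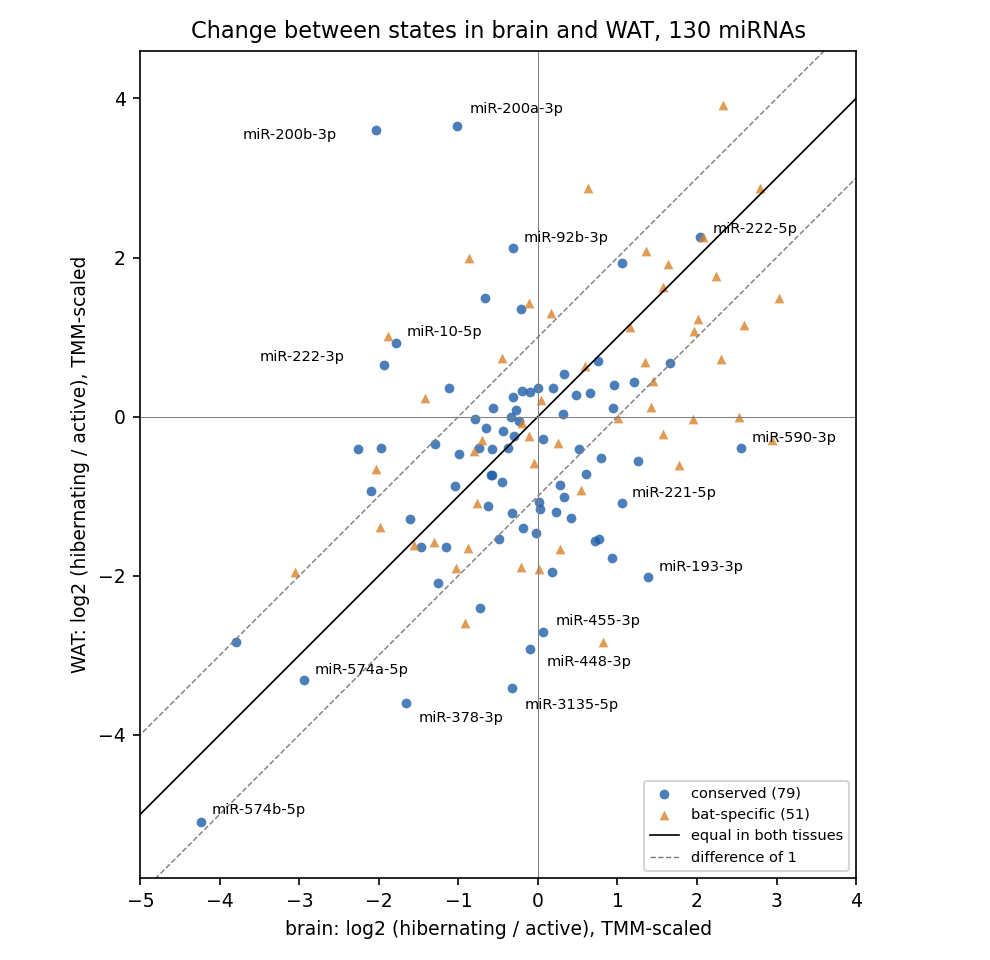
Each point is 1 of the 130 miRNAs, with its TMM-scaled log2 ratio of hibernating to active in brain on the x axis and in WAT on the y axis, and circles for conserved and triangles for bat-specific miRNAs. Points on the solid line have equal ratios, and the dashed lines mark a difference of 1, beyond which 61 miRNAs lie. miR-200a-3p, with 0 reads in AA, and miR-181c-3p, with 0 reads in HA, are drawn at a floor of 3 reads.

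Conserved and bat-specific miRNAs differed in how closely the tissues moved together. Among the 79 conserved members r was 0.28 and rho 0.16, whereas among the 51 bat-specific members r was 0.54 and rho 0.56. Of the members whose interval excluded 0 in each tissue, opposite directions were found in 21 of 51 conserved (41.2%) and in 3 of 24 bat-specific ones (12.5%). The bat-specific members with the same direction were mostly higher in hibernation, 15 against 6, and the conserved ones mostly lower, 20 against 10. These counts by direction rest on 1 scaling common to both classes, which added 0.01 to each brain and 0.34 to each WAT ratio. TMM within class added 0.14 and 1.11 in conserved members, and -0.55 and -0.10 in bat-specific ones, so the directions can move with the scaling. The difference itself had a median of 0.20 and an SD of 1.60 in conserved and a median of 0.32 and an SD of 1.44 in bat-specific members. The medians lay further apart under other settings, at -0.44 and 0.20 with TMM within class, at 0.021 and 0.47 with 10 or more reads in each library and at -0.18 and 0.77 with 100 or more reads in each tissue, conserved first. It reached 1 in size in 35 conserved and 26 bat-specific members.

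The contrast between the classes has no test, and that in r narrowed with the minimum count. With 10 or more reads in each of the 4 libraries, which left 96 members, r was 0.24 and rho 0.27 over all of them, and r was 0.079 among 65 conserved and 0.28 among 31 bat-specific ones. Many bat-specific members are near-copies of one another, and 31 members in 11 groups shared a run of 12 or more bases, so they are not separate observations. Without the 2 members that had 0 reads in 1 library, r over the other 128 was 0.47.

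Some miRNAs changed by a like amount in both tissues in their listed forms. Both ratios were 1 or more in size for 32 members, of which 14 were higher in both hibernating libraries, 13 were lower in both and 5 were opposite. miR-222-5p, the minor arm of the miR-222 hairpin, had 98 reads in HB against 24 in AB, and 133 in HA against 35 in AA. Its log2 ratio was 2.04 in brain and 2.26 in WAT, a difference of -0.22 (interval -1.12 to 0.69). The bat-specific aGAAAAGGtgttggttgat had 62 reads in HB against 9 in AB, and 58 in HA against 10 in AA, with a difference of -0.08 (interval -1.65 to 1.50). Under the 2 rules that pool length variants its difference was -1.91 and -1.38, so the likeness holds for the listed form. In both of these miRNAs the 2 hibernating libraries lay above the 2 active ones.

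miR-485-3p, from the imprinted DLK1-DIO3 cluster, went the other way in both tissues. It had 3180 reads in HB against 9794 in AB, and 173 in HA against 532 in AA, and its difference was -0.33 (interval -0.59 to -0.07). Under the rules that pool length variants this difference was -1.13 and -0.996. The nested pair miR-574a-5p and miR-574b-5p had low ratios in both tissues. miR-574a-5p had 4 reads in HB against 31 in AB, and 27 in HA against 338 in AA, with log2 ratios of -2.95 in brain and -3.31 in WAT, and a difference of 0.36 (interval -1.70 to 2.02). In their listed forms, the other same-direction members closest to equality were miR-6119-3p (difference 0.17) and 6 bat-specific ones, with differences from -0.29 to 0.27. Under the rules that pool length variants miR-6119-3p was at 0.44 and 1.22 and gCGTTGGTggtatagtgg at -2.38 and -2.22. The 20 nt sequence aAAGAAACagaacttccgga was at -1.74 and -1.69, and the others stayed under a size of 1. Equality within counting error is a wide statement for most of these miRNAs, as the interval of miR-574a-5p shows.

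With the scaling used here, the miRNAs with opposite directions of 2-fold or more were 5. Some of their ratios lay close to 1 in size, such as -1.02 in brain for miR-200a-3p, and other scalings can take these under 1. The lowest difference with reads in every library belonged to miR-200b-3p, a miRNA of epithelial cells known for its repression of the ZEB transcription factors. It had 24 reads in HB against 99 in AB, and 269 in HA against 28 in AA. Its log2 ratio was -2.04 in brain and 3.60 in WAT, and the difference was -5.64 (interval -6.55 to -4.73). Its relative miR-200a-3p, which lies beside it in 1 cluster in mammals, had 100 reads in HB against 204 in AB, and 30 in HA against 0 in AA. At a floor of 3 reads in AA the point value of the difference was at most -4.68, with log2 ratios of -1.02 in brain and at least 3.66 in WAT. With counting error, the interval of the difference reached up to -4.24 and that of the WAT ratio down to 3.27. Both miR-200 members were thus lower in the hibernating than the active brain library and higher in the hibernating than the active WAT library.

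miR-200a and miR-200b are also the 2 epithelial markers used here, and their summed reads were 124 in HB against 303 in AB, and 299 in HA against 28 in AA. The part that epithelial cells in the dissected tissue play in these values was not tested. Both differences were also large when all tags with bases 2 to 17 of the sequence were counted. miR-200b-3p then had 61, 147, 547 and 40 reads in HB, AB, HA and AA and a difference of -5.35, and miR-200a-3p had 664, 923, 139 and 4 reads and a difference of -5.90.

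A lower ratio in brain with opposite directions was also found for the bat-specific tACGGCCAagcacccgcaggg, with 15 reads in HB against 56 in AB, and 16 in HA against 10 in AA and a difference of -2.91 (interval -4.48 to -1.35). Its WAT ratio alone had an interval across 0, and its difference was -1.26 and -1.06 under the rules that pool length variants. In the other direction, miR-193-3p, which together with miR-365 has been linked to brown fat cell differentiation, had 13 reads in HB against 5 in AB, and 106 in HA against 541 in AA. Its difference was 3.40 (interval 1.78 to 5.27), from log2 ratios of 1.39 in brain and -2.02 in WAT. Few of its reads came from brain, the interval of its brain ratio, -0.19 to 3.23, held 0, and the difference was 1.64 and 1.71 under the pooled rules.

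miR-221-5p completed these 5, with 247 reads in HB against 120 in AB, and 19 in HA against 51 in AA and a difference of 2.14 (interval 1.28 to 3.04). The listed sequence is an 18 nt form, and it held few of this miRNA's reads. All tags with its bases 2 to 17 gave 11265, 8350, 3869 and 2118 reads in HB, AB, HA and AA and a difference of -0.75, so its direction turned with the forms that were counted.

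Among members with 10 or more reads in each library, the conserved miRNAs with the highest differences were far lower in the hibernating than in the active WAT library while brain moved little. miR-3135-5p had 639 reads in HB against 808 in AB, and 361 in HA against 4874 in AA, which gave a difference of 3.09 (interval 2.87 to 3.31). miR-448-3p, which lies in an intron of the serotonin receptor gene Htr2c in mammals, had 3829 reads in HB against 4138 in AB, and 77 in HA against 739 in AA, and its difference was 2.82 (interval 2.48 to 3.19). miR-455-3p, linked to brown fat cell differentiation, had 209 reads in HB against 201 in AB, and 65 in HA against 535 in AA, and its difference was 2.77 (interval 2.29 to 3.26). The log2 ratios of these 3 miRNAs were -0.33, -0.10 and 0.07 in brain against -3.42, -2.93 and -2.70 in WAT. With the first 18 nt miR-448-3p was again at 2.82, whereas under the pooled rules miR-3135-5p fell to 1.81 and 2.01 and miR-455-3p to 1.09 and 1.28. In the former count miR-455-3p had 1192 reads in HA against 2905 in AA.

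The 2 bat-specific sequences highest in this ranking showed, in their listed forms, the reverse layout, with a high brain ratio and a smaller change in WAT. The 18 nt sequence aGGAGTGTgtaacaactc had 221 reads in HB against 29 in AB, and 31 in HA against 48 in AA and a difference of 3.23 (interval 2.31 to 4.15). The 19 nt sequence tGACTATCtagaggaagta stood at 67.7 RPM (reads scaled by the clean reads of the library) in HB against 14.4 in AB, and 19.2 in HA against 24.7 in AA, with a difference of 2.53 (interval 2.16 to 2.90). In both, HB was the highest of the 4 libraries, and the WAT libraries lay closer to each other than the brain libraries did. Under the pooled rules the 18 nt sequence was at 1.89 and 2.15. The 19 nt sequence was at 1.81 and 0.95, and tags with its bases 2 to 17 had 2323 reads in HA against 1344 in AA, whereas the listed form had a lower RPM in HA than in AA. The remaining members of the 10 highest were the 18 nt form of the latter (2.38), miR-361-5p (2.28), miR-221-5p (2.14), miR-381-5p (2.13) and cCTCGACAcaagggtttgt (1.98).

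miR-181c-3p, with 154 reads in HB against 81 in AB, and 0 in HA against 13 in AA, had a difference of at least 2.72 as a point value at a floor of 3 reads, and its interval reached down to 2.15. Its call rests on the listed form, because tags with its bases 2 to 17 had 314 reads in HA against 168 in AA and a difference of -0.71. The single highest difference, 3.65, belonged to the bat-specific gATGCTCTtagctgagtg, which had 7 reads in HB against 4 in AB, and 1 in HA against 9 in AA. Its interval from -0.13 to 9.29 held 0, and it was at 1.89 and 1.26 under the pooled rules.

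**Figure D2:**
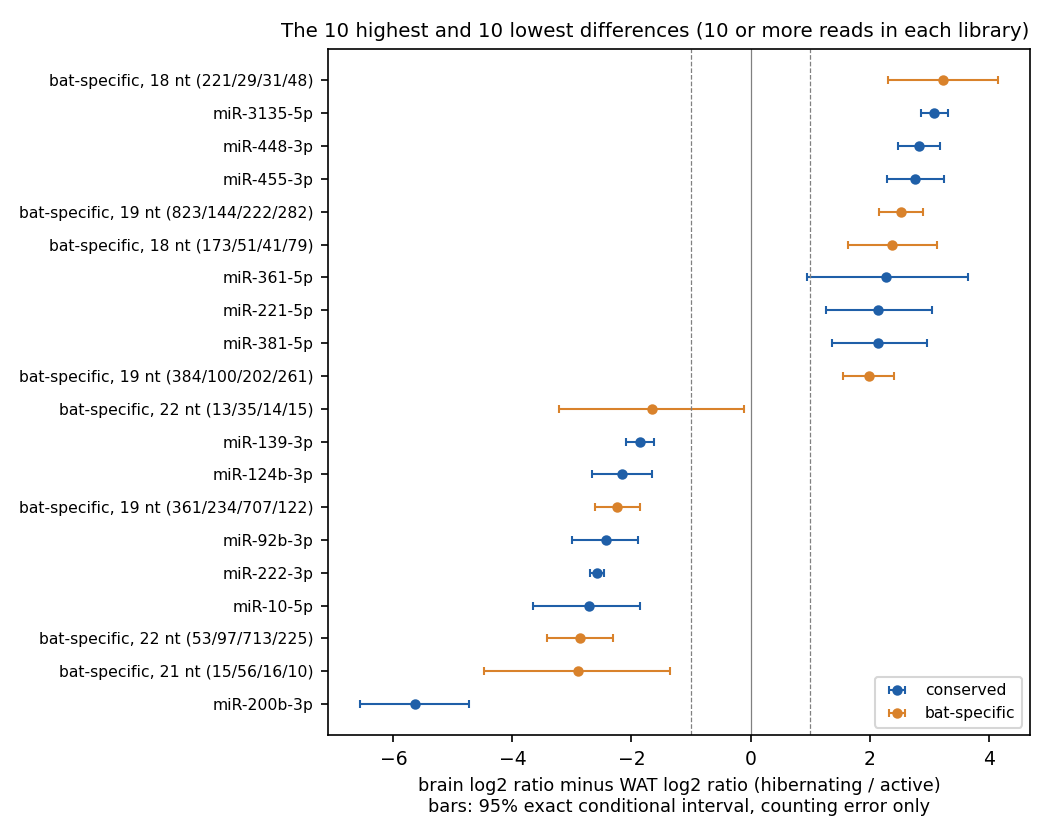
Difference between the brain and WAT log2 ratios for the 10 highest and 10 lowest of the members with 10 or more reads in each library. Points are values and bars are 95% exact conditional intervals for counting error, bat-specific miRNAs are given by length and reads in HB/AB/HA/AA, and values run from -5.64 for miR-200b-3p to 3.23.

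At the other end stood miRNAs that were lower in the hibernating brain library and higher in the hibernating WAT library. miR-222-3p, which shares its seed with miR-221-3p and represses the cell cycle inhibitor p27, had 1357 reads in HB against 5218 in AB, and 3277 in HA against 2639 in AA. Its difference was -2.58 (interval -2.70 to -2.47), the narrowest interval among the 10 lowest. miR-10-5p, whose genes lie in the Hox clusters, had 15 reads in HB against 52 in AB, and 1655 in HA against 1097 in AA and a difference of -2.71 (interval -3.66 to -1.85). Few of its reads came from brain, where HB lay under AB.

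miR-92b-3p, a miRNA of neural progenitors, had 3948 reads in HB against 4929 in AB, and 127 in HA against 37 in AA, and its difference was -2.43 (interval -3.00 to -1.88). miR-139-3p, from an intron of Pde2a in mammals, had 296 reads in HB against 1430 in AB, and 545 in HA against 912 in AA, and its difference was -1.86 (interval -2.10 to -1.62). It was lower in both hibernating libraries, but more so in brain, and the difference was -0.93 under either pooled rule, short of a size of 1. The bat-specific gCGTTGGTggtatagtggtgag had 53 reads in HB against 97 in AB, and 713 in HA against 225 in AA, a difference of -2.86 (interval -3.42 to -2.31). Its fellow cCCGGCGGggaaggtggct had 361 reads in HB against 234 in AB, and 707 in HA against 122 in AA, with both hibernating libraries higher and a difference of -2.24 (interval -2.61 to -1.86).

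**Figure D3:**
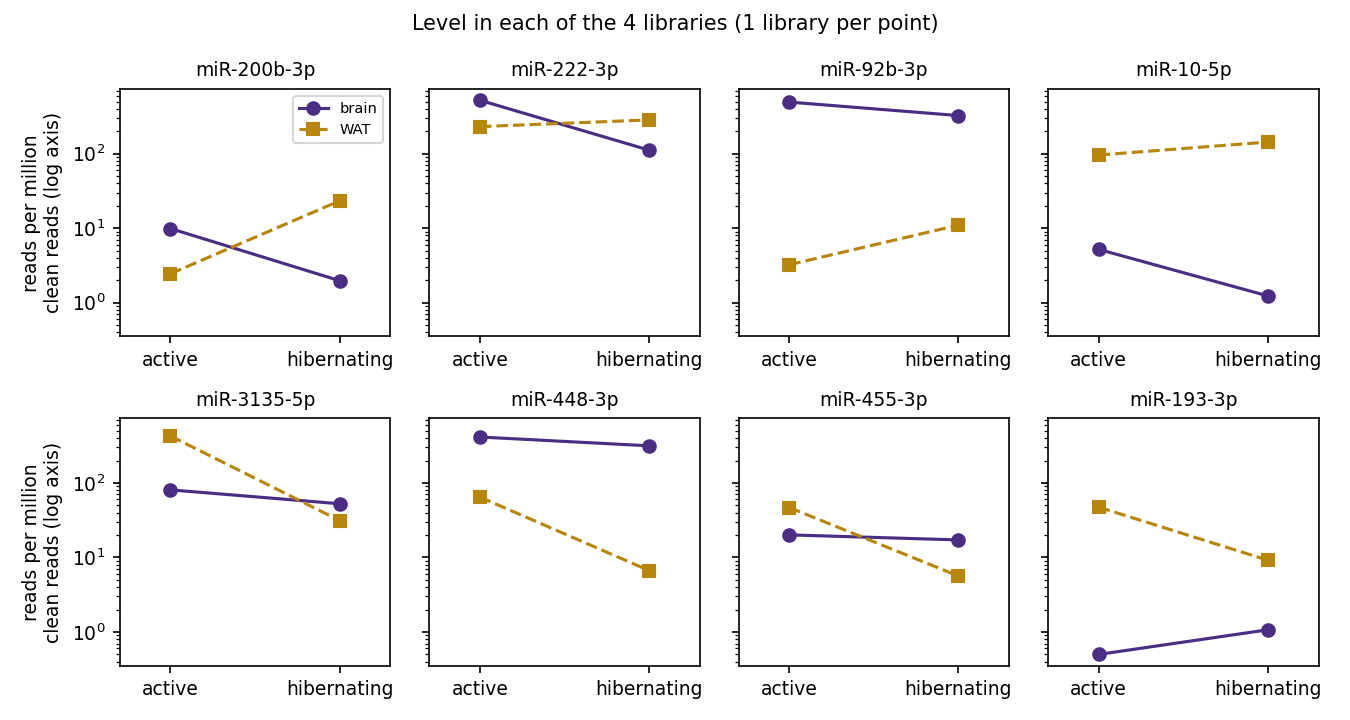
RPM (reads scaled by the clean reads of the library) in the active and the hibernating library (log axis) for 8 conserved miRNAs, with brain as circles and solid lines and WAT as squares and dashed lines, 1 library per point. The upper 4 are lower in the hibernating brain library and higher in the hibernating WAT library, and in the lower 4 the WAT line falls more steeply than the brain line or, for miR-193-3p, against it.

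The 10 most abundant members had differences from -1.59 to 1.09 with narrow intervals. They included miR-29-3p, known for its repression of collagens, with 799130 reads in HB against 416098 in AB, and 373410 in HA against 357670 in AA and a difference of 0.55 (interval 0.54 to 0.56). miR-100-5p had 221291 reads in HB against 220756 in AB, and 111620 in HA against 297206 in AA and a difference of 1.09 (interval 1.08 to 1.10). Its brain libraries were level in the listed form, and HA lay under AA. With the first 18 nt it had 436585 reads in HB against 560410 in AB, and 426375 in HA against 844107 in AA, and the difference was 0.12. It was 0.32 with bases 2 to 17 and 0.44 with TMM within class, so the gap of miR-100-5p rests on the listed form and on the scaling. miR-199-3p, of fibroblasts and vessel walls, had 6372 reads in HB against 8024 in AB, and 156158 in HA against 458628 in AA and a difference of 0.89 (interval 0.85 to 0.94).

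Members with a shared seed could lie far apart. The members listed as miR-7a to miR-7g with the seed of let-7, a family that times development, spanned a range of 2.73. The sequences of 4 of them are shown because they include the highest and the lowest value.
miR-7a-5p: tGAGGTAGtaagttgtattgt
miR-7b-5p: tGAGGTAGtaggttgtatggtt
miR-7d-5p: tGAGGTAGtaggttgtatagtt
miR-7f-5p: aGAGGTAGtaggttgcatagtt

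The highest of these 6, miR-7a-5p, had 649 reads in HB against 538 in AB, and 107 in HA against 246 in AA and a difference of 1.14 (interval 0.77 to 1.53). Its value was 0.18 and 0.38 under the pooled rules and 0.50 with TMM within class, so the range of the family rests in part on this listed form. The lowest, miR-7f-5p, had 33998 reads in HB against 134582 in AB, and 22072 in HA against 36531 in AA and a difference of -1.59 (interval -1.61 to -1.56). Between them lay miR-7b-5p (0.16), miR-7g-5p (-0.34), miR-7e-5p (-0.53) and miR-7d-5p (-0.68), each with a counting interval apart from that of miR-7a-5p and miR-7f-5p. Each of these counts is of the tag equal to the listed sequence. As the sequences are near-identical, whether some reads came from a relative was not tested. The pooled rules count the same tags for miR-7b-5p and miR-7d-5p and gave both -0.19 and -0.00093. Under these rules miR-7e-5p was at -0.20 and -0.01, and miR-7g-5p at 0.09 and 0.26.

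The seed of miR-92 gave differences of -0.18 for miR-92a-3p, whose sign turned with the scaling, -1.57 for miR-363-3p and -2.43 for miR-92b-3p. miR-363-3p had 180 reads in HB against 210 in AB, and 134 in HA against 66 in AA, and thus shared with miR-92b-3p a higher hibernating WAT library. The seed of miR-29 gave 0.55 and 0.83. miR-16-5p and miR-503-5p, whose seeds are alike but not identical, had differences of -0.17 and 0.05. The seed shared by the muscle miRNAs miR-1-3p and miR-206-3p gave 0.37 and -0.18. Over the 48 pairs of members with a common seed, in 16 seeds, the median gap between their differences was 0.943, against 1.38 over all 8385 pairs of members. A gap of 1 or more was found in 43.8% of the former and in 62.5% of the latter, and no test compared them. The seed of let-7 and the seed AAGAAAC of bat-specific members had 6 members each. They gave most of the 48 pairs, so these pairs are not separate observations.

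Over the 14 pairs of arms of 1 hairpin the median gap was 0.640, and 6 pairs (42.9%) were 1 or more apart, a share like that of the pairs with a common seed. The arms of miR-486, an erythroid and muscle miRNA, had differences of -1.48 and -1.17, and those of miR-381, from the DLK1-DIO3 cluster, 2.13 and 1.69. The arms of miR-100 had 1.44 and 1.09 in their listed forms, and 0.92 and 0.12 with the first 18 nt. By contrast, miR-222-3p (-2.58) and miR-222-5p (-0.22) were 2.36 apart. miR-129-3p, a brain miRNA, had 34053 reads in HB against 14360 in AB, and 1104 in HA against 2060 in AA and a difference of 1.82 (interval 1.71 to 1.93), while its other arm miR-129-5p had 376, 594, 89 and 124 reads and a difference of -0.51 (interval -0.96 to -0.05). Within this hairpin the arms were on opposite sides of 0, also under the pooled rules, where miR-129-5p was at -1.21 and -1.03.

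Length variants listed as separate miRNAs showed how much the difference of 1 sequence can depend on its end. The bat-specific gCGTTGGTggtatagtgg lies whole within gCGTTGGTggtatagtggtgag. The shorter form had 137 reads in HB against 62 in AB, and 504 in HA against 291 in AA and a difference of 0.02 (interval -0.47 to 0.53), 2.89 above that of the longer form. With length variants pooled, both forms have the same reads and differences of -2.38 and -2.22. miR-124a-3p, 18 nt long, lies within miR-124b-3p, 22 nt long, and both are neuronal. The difference was -0.41 (interval -0.65 to -0.17) for the former and -2.16 (interval -2.67 to -1.66) for the latter, which had 39016 reads in HB against 62399 in AB, and 111 in HA against 50 in AA. The rules that pool length variants count the same tags for both, with differences of -0.66 and -0.38. The 18 and 19 nt forms of tGACTATCtagaggaagt, at 2.38 and 2.53, were the closest nested pair. Over the 14 pairs in which 1 sequence contains the other, the median gap was 1.04, and 7 pairs were 1 or more apart.

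**Figure D4:**
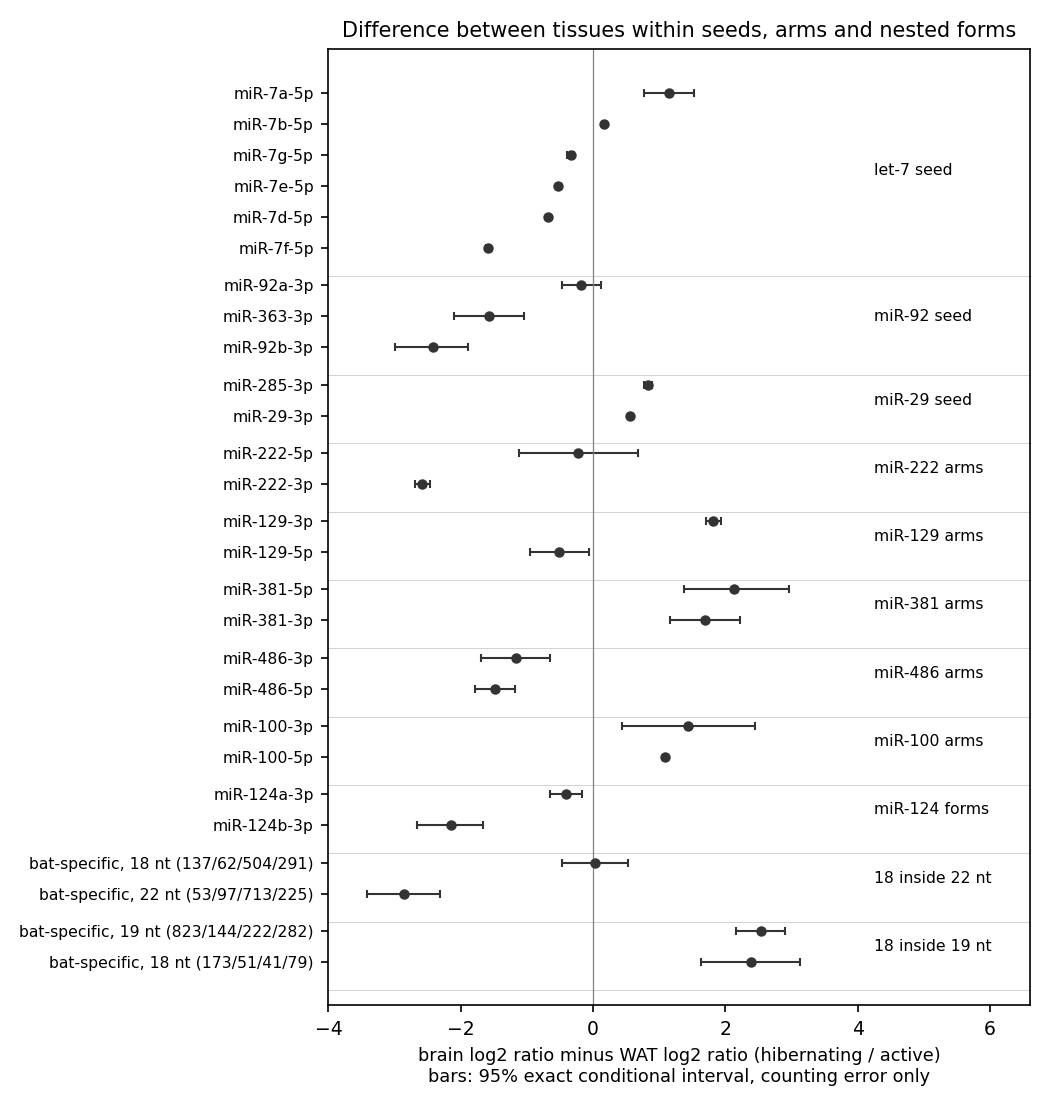
Differences between the brain and WAT log2 ratios, with 95% counting intervals as bars, for members that share a seed, a hairpin or, in nested forms, a sequence. The 6 miRNAs with the let-7 seed run from -1.59 to 1.14, the arms of miR-222 are 2.36 apart, and the nested bat-specific forms of 18 and 22 nt are 2.89 apart.

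Groups of miRNAs with a known role were read against the shares of 30.8% of members higher and 16.2% lower in brain. Of the 7 miRNAs on the adipose list, all members, 5 had a ratio higher in brain by 1 or more and none had a lower one, and the median difference was 1.34. miR-378-3p, a fat and muscle miRNA in an intron of Ppargc1b, had 1459 reads in HB against 4624 in AB, and 11775 in HA against 180178 in AA and a difference of 1.94 (interval 1.85 to 2.03). Both hibernating libraries were lower, that of WAT most. The others were miR-193-3p and miR-455-3p, described above, miR-130-3p (1.34), which represses the fat cell regulator PPARG, and miR-365-3p (1.31). Under TMM within class, miR-130-3p and miR-365-3p fell under a size of 1, at 0.69 and 0.66, and miR-365-3p did so under the pooled rules as well, at 0.43 and 0.58. miR-22-3p (0.20) and miR-148-3p (-0.36) were closer to equality. Summed reads of the list were 4881 in HB against 7636 in AB, and 24266 in HA against 196348 in AA. Of the WAT reads, miR-378-3p alone held 11775 in HA and 180178 in AA, so the fall of the WAT sum was mostly that of 1 miRNA. The part of the number of fat cells in these values was not tested.

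Of the 8 listed miRNAs of the DLK1-DIO3 cluster, 6 were members, with a median difference of 1.26, and 3 had a higher ratio in brain. miR-544-5p had 929 reads in HB against 550 in AB, and 6 in HA against 22 in AA and a difference of 2.30 (interval 0.94 to 3.90). miR-381-5p had 902 reads in HB against 801 in AB, and 18 in HA against 88 in AA, and its difference of 2.13 stood beside 1.69 for miR-381-3p. In all 3 the gap came with few reads in HA. In their listed forms miR-432-5p (0.84), miR-485-3p (-0.33) and miR-154-3p (-0.36) were under 1 in size. Under the pooled rules miR-381-3p was at 0.86 and 1.34, and miR-485-3p at -1.13 and -0.996.

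The neuronal and glial list had 7 of 14 miRNAs as members, since the others had too few WAT reads. Their median difference was -0.05, with miR-129-3p (1.82), miR-218a-5p (1.33) and miR-9-3p (1.05) higher in brain and miR-124b-3p, in its listed form alone, lower. The value of miR-9-3p rests on 3 reads in HA and 11 in AA, its interval from -0.87 to 3.53 held 0, and it turned to -0.60 and -0.58 under the pooled rules. Summed over the list, the reads were 534459 in HB against 582217 in AB, and 1623 in HA against 2590 in AA, with 6 of the 14 at 0 in HA and 4 in AA. The WAT side of these differences thus rests on few reads, and the part of neural RNA in the WAT pools was not tested.

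Muscle markers showed no gap of 1 in any of 3 members in their listed forms. Their summed reads were 23683 and 16059 in brain and 200948 and 208761 in WAT, hibernating first, and most were of miR-1-3p. The value of miR-133-3p, 0.48, rests on 4 reads in HB and 9 in AB, and its interval from -1.71 to 2.36 held 0. The difference of miR-133-3p passed 1 under both pooled rules, and was 1.54 with bases 2 to 17. Among blood cell markers, miR-486-5p (-1.48) and miR-486-3p (-1.17) had a lower ratio in brain and miR-142-5p was at 0.78. With TMM over the 4 libraries miR-486-3p was at -0.83. The list summed to 342 reads in HB against 624 in AB, and 2922 in HA against 3060 in AA. Of the 4 stromal and vessel markers, miR-10-5p was lower and the others were between 0.37 and 0.99 in their listed forms. The value of 0.99, of miR-145-3p, rests on 22 reads in HB and 7 in AB. Its interval from -0.33 to 2.49 held 0, and it turned to -0.08 and -0.20 under the pooled rules. The list of 10 miRNAs studied in torpid animals had 2 higher (miR-378-3p and miR-181a-3p, the latter for the listed form alone), 2 lower (both arms of miR-486) and a median of 0.09. The 3p arms of miR-30 gave 4 differences from -0.56 to 0.50. The part of blood, muscle or stroma in these values was not tested.

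Low counts went with large differences. A size of 1 or more was found in 20 of the 34 members whose lowest library held under 10 reads and in 28 of 51 with 10 to under 100. It was found in 8 of 26 with 100 to under 1000 and in 5 of 19 with 1000 or more reads in the lowest library. The median interval width fell over these classes from 3.74 to 0.097, so the last 5, miR-222-3p, miR-378-3p, miR-129-3p, miR-7f-5p and miR-100-5p, are those that counting error touches least. Counting error is not the only limit, and of these 5 miR-100-5p lost its size of 1 under the pooled rules, as given above. These 5 were picked out after their values were seen.

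The sign varied with sequence length and GC content, which the choice of members did not use. Of the 17 members of 18 nt, 7 had a ratio higher in brain by 1 or more and none a lower one, whereas among the 48 members of 22 nt the numbers were 11 and 12. When length variants were pooled, those 17 members had 4 higher and 3 lower with the first 18 nt and 3 each with bases 2 to 17. Of the 44 members with the highest GC content, 9 were higher and 13 lower, against 16 and 4 of the 43 with the lowest. By tissue share, which comes from the same 4 counts as the difference, 11 of the 25 members with over 80% of their scaled reads in brain were higher and 3 lower. Length overlapped with class, because 7 of the 17 members of 18 nt were conserved, against 34 of the 48 of 22 nt. How far length, GC content and tissue share overlap was not examined.

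The tissues also parted over the other small RNAs of the libraries. Over the 27158 distinct tags with 10 or more reads in each tissue's libraries r was 0.31. A difference of 1 or more in size was found in 51.0% of the 2932 unlisted tags that hold bases 2 to 17 of a listed sequence. The share was 47.5% among the tags with 1000 or more reads in all and 39.0% among the members with as many. Long tags stood apart, since of 681 tags of 27 to 30 nt without a listed sequence 442 had a ratio lower in brain by 1 or more. Over all tags this held for 7396 of 27158. The median difference was -1.62 for the long tags against 0.09 over all tags. The median log2 ratio of the long tags was 2.01 in brain and 3.74 in WAT, against 1.01 and 0.87 over all tags.

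**Figure D5:**
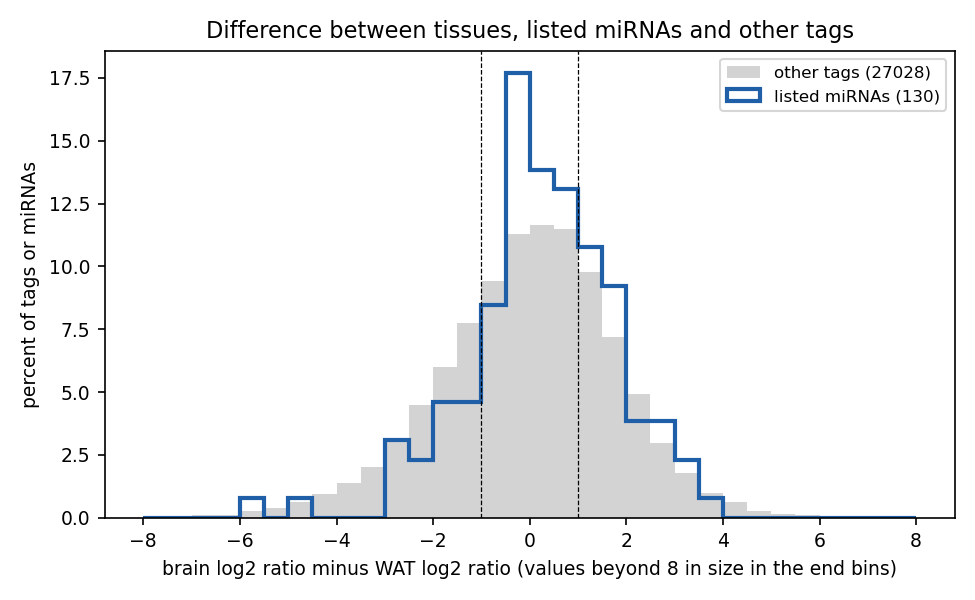
Percent of the 130 listed miRNAs (line) and of the 27028 other tags with 10 or more reads in each tissue (grey bars) by difference between the brain and WAT log2 ratios, in bins of 0.5. Dashed lines mark a difference of 1 in either direction, which 46.9% of the members reached or passed.

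Of the 66 listed miRNAs that were no members, 23 fell under the minimum in WAT only, 12 in brain only and 31 in both. Just outside the minimum lay miR-135-3p, with 738 reads in HB against 1110 in AB, and 7 in HA against 2 in AA, and just inside it lay miR-7f-3p, with 1, 14, 1 and 9 reads.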

How the data were processed

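Small RNA libraries were made from 4 pools of total RNA (hibernating and active brain and WAT) and sequenced on the Solexa platform. The deposited files give raw counts of distinct tags of 18 to 30 nt per library, which the authors made by trimming adapters and discarding poor reads. Each miRNA was counted by the tag that equals its listed mature sequence. No genome position is given for any sequence. Ratios were scaled by TMM (edgeR 4.0.16, R 4.3.3) over the 196 listed miRNAs within each tissue. The interval of a difference is the exact conditional interval of the odds ratio of the 4 counts (SciPy 1.17.1), shifted by the scaling, and that of a ratio is a Clopper-Pearson interval. PCR copies are not independent molecules, so intervals cover counting error only. Where a library had 0 reads, a floor of 3 reads gave a bound on the point value, while the interval used the count of 0. The calculation was tested on simulated data.

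Named miRNAs were the 10 highest and 10 lowest with 10 or more reads in each library, members with ratios of 1 or more in size in both tissues (the 10 closest to equality and all with opposite signs), members with 0 reads in a library, hairpin arms, overlapping sequences, the 10 most abundant, and the lists by role. The members and lists were chosen with earlier results of these data known. Other scalings, including DESeq2 1.42.0 size factors, count rules, minimum counts, thinning to equal depth, an added count of 0.5 and summing of nested sequences were tried.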

Additional observations from a re-analysis of the deposited data

Results flagged for a closer look

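For 5 miRNAs the change between states was 1 or more on the log2 scale in each tissue and of opposite sign, so that the 2 brain libraries moved one way and the 2 WAT libraries the other. With 1 library per condition, the difference was not tested for any of them. The difference between the brain and WAT log2 ratios was 3.40 for miR-193-3p and 2.14 for miR-221-5p, where hibernation was higher in brain and lower in WAT. It was -2.91 for the bat-specific tACGGCCAagcacccgcaggg, at most -4.68 at a floor of 3 reads for miR-200a-3p (interval up to -4.24) and -5.64 for miR-200b-3p, where hibernation was lower in brain and higher in WAT. When all tags with bases 2 to 17 of the sequence were counted, miR-193-3p was at 1.71, the bat-specific miRNA at -1.06, miR-200a-3p at -5.90 and miR-200b-3p at -5.35, and miR-221-5p turned to -0.75. The size of 1 in each tissue also rests on the main scaling. Ratios close to it were -1.02 in brain for miR-200a-3p and 1.01 in WAT for the bat-specific miRNA. Those of miR-221-5p were 1.05 in brain and -1.09 in WAT, and other scalings can take these ratios under 1 in size.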

How the results depend on the processing

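No paired analysis was possible because each condition had 1 pooled library, and for the same reason no replicate could be left out. Of the 130 members, 75 kept 1 sign under the main setting and all alternatives that gave them a value, and so did 51 of the 61 with a size of 1 or more. For 28 of these 61 the size was 1 or more throughout, 15 higher and 13 lower in brain, among them miR-193-3p, miR-3135-5p, miR-448-3p, miR-455-3p, miR-378-3p, miR-129-3p, miR-222-3p, miR-10-5p, miR-92b-3p, miR-7f-5p and both miR-200 members. The differences under the main setting and with tags that begin with the first 18 nt had a Spearman's rho of 0.74.

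The median difference of 0.28 was -0.14 with scaling by reads of listed miRNAs, 0.018 with the median of ratios, 0.61 with TMM over 4 libraries and -0.17 with TMM within each class. It was -0.089 with tags that begin with the first 18 nt, 0.083 with tags that contain bases 2 to 17, 0.14 with 10 or more reads in each library, -0.012 with 100 or more reads in each tissue and 0.11 after thinning. The number lower in brain by 1 or more rose from 21 to 34 with TMM within class, 38 with the first 18 nt and 34 with bases 2 to 17, and was 12 with 100 or more reads in each tissue. The number higher fell from 40 to 26 with 10 or more reads in each library and to 16 with 100 or more in each tissue, where 28 in all had a size of 1 or more. At a size of 2 or more there were 23.

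Pearson's r of 0.44 was 0.31 under either rule that pools variants, 0.24 with 10 or more reads in each library and 0.27 with 100 or more in each tissue. Spearman's rho of 0.39 was 0.29 with bases 2 to 17 and 0.27 with 10 or more reads in each library. Over all settings r ranged from 0.079 to 0.28 in conserved and from 0.22 to 0.55 in bat-specific miRNAs. Among named miRNAs of size 1 or more the sign turned under the first 18 nt and under bases 2 to 17 for miR-181c-3p (-0.90 and -0.71), miR-221-5p (-0.94 and -0.75), miR-181a-3p (-0.28 and -0.10), miR-9-3p (-0.60 and -0.58), tACCGATTggatggttta (-1.15 and -0.040), aAGCCGGCagtcagacatcc (-0.45 and -0.54) and aAAGAAACagaacttccggag (-1.74 and -1.69, and -0.56 with nested sequences summed). It turned under bases 2 to 17 alone for gAACTTGActatctagagga (-1.33) and gATCGGGCctaaactggcagta (0.091). Both rules add length variants of the listed form, and which variants carried the turn was not tested.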
